A study of Mus musculus with 14 samples.

Results

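The genes for insulin-like growth factor 1, its receptor and the IGF-binding proteins 2 to 7 were measured by RNA sequencing in 14 libraries made from clones of mouse bone marrow stroma. The members were the genes of the deposited count table whose symbol is Igf1, Igf1r, Igfbp2, Igfbp3, Igfbp4, Igfbp5, Igfbp6 or Igfbp7, which is 8 of 23331 genes, with 1 row each. The cells were flushed from femora and tibiae of adult C57Bl/6 mice carrying irtTA-GBD*-TAg, a transgene from which dexamethasone and doxycycline induce large T antigen, the viral protein that drives the clones to divide. All groups share this transgene, an expansion with both inducers and 3 days of culture without them before RNA was taken, and the labels name no wild-type cells. Each clone's potential to form bone (O), fat (A) or cartilage (C) cells had been assayed. The groups were tripotent clones (OAC), clones with osteogenic and adipogenic potential (OA), unipotent osteogenic clones (O) and unipotent adipogenic clones (A), with 3 libraries each, and the pools OC3 and AC3, with 1 library each. In each group of 3, libraries 1 and 2 came from 1 clone each, taken from different mice, and library 3 from a pool of several other clones of these 2 mice. The p-values therefore rest on how far such clones and pools vary.

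IGF1 is a secreted growth factor that acts through the IGF1 receptor, a tyrosine kinase that signals through insulin receptor substrates to PI3K and Akt. The binding proteins hold IGFs in the extracellular space and, depending on the protein, block or prolong their action until proteases such as PAPP-A and PAPP-A2 cut them. In bone, osteoblast-lineage cells make IGF1 and several binding proteins, and IGFs stored in the matrix act on bone formation.

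The 250 bases before the transcription starts of 4 binding protein genes are shown. Igfbp2 and Igfbp5 are neighbours on mouse chromosome 1 with 0 annotated genes between their starts, and both were highest in the same libraries, O3 and OC3. Igfbp6 and Igfbp7 were the members with a call between O and A in a second test. The sequences are RefSeq's, from build GRCm38.p6, and read 5′ to 3′ on the gene's strand, while the counts were made on mm9. Capitals mark the motifs searched on both strands, which were TATAAA (the core of a TATA box), GGGCGG (a GC box) and TGTGGT (the core bound by Runx factors).
Igfbp2, start site 1 of 2, chr1:72824230-72824479, plus strand: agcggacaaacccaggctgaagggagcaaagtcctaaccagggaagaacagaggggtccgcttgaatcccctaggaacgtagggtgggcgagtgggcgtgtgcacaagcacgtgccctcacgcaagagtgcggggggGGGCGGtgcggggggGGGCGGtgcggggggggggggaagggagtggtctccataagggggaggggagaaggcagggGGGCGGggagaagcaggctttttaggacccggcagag
Igfbp5, chr1:72874866-72875115, minus strand: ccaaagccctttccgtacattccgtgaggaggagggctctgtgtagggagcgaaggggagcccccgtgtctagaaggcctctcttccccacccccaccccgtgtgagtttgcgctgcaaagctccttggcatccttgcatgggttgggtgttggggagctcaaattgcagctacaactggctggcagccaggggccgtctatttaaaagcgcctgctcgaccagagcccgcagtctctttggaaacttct
Igfbp6, chr15:102143936-102144185, plus strand: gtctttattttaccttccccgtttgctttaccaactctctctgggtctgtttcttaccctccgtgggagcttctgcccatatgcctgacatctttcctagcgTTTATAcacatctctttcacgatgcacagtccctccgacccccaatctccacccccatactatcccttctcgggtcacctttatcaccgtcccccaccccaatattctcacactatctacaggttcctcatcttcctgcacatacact
Igfbp7, chr5:77408046-77408295, minus strand: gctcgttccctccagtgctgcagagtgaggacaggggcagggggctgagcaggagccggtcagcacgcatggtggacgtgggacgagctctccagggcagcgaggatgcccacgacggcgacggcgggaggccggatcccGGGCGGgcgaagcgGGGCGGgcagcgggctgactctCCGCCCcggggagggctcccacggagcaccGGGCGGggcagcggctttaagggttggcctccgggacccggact

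The Igfbp7 window held 4 GC boxes, a GC content of 74.0% and 26 CG pairs. The Igfbp2 window held 3 GC boxes, a GC content of 67.2% and 14 CG pairs. The Igfbp6 window held 1 TATAAA match, a GC content of 49.6% and 7 CG pairs. This match was on the opposite strand (TTTATA) and not close to the start. The Igfbp5 window held none of the 3 motifs, with a GC content of 58.8% and 10 CG pairs. Among all 32851 promoter windows of this length, 32.7% held GGGCGG, 12.4% held TATAAA and 4614 held TGTGGT, with a median GC content of 52.4% and a median of 6 CG pairs. The neighbours Igfbp2 and Igfbp5 therefore shared no motif of the 3 in these windows.

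Levels are given as CPM, the count of a gene relative to the TMM-corrected size of its library. The total count per library ran from 16888190 in OAC2 to 26076539 in OC3, so that 3 reads correspond to 0.113 to 0.191 CPM. Each library's deviations from the mean also followed the GC content of the genes, with Spearman's rho from -0.54 in OAC3 to 0.65 in OA2 across genes. OA2 and O1 stood apart, with median log2 deviations of -1.79 and -1.09 among low-GC genes. Osteoblast markers, summed over 9 genes of which none was at 0 throughout, spanned 34700 to 55800 CPM in O libraries and 5120 to 11400 CPM in A libraries. Adipocyte markers, summed over 8 genes, spanned 93.2 to 118 CPM in O libraries and 590 to 905 CPM in A libraries, and marrow stroma markers over 9 genes 1040 to 1230 CPM in O libraries and 3100 to 6080 CPM in A libraries. Sums over all libraries spanned 34.0 to 325 CPM for cartilage, 91.6 to 305 CPM for Schwann and neural, 7.91 to 82.5 CPM for skeletal muscle and 3980 to 22800 CPM for smooth muscle genes. Markers of blood cells summed to 49.1 CPM in O1 and to at most 17.5 CPM elsewhere, endothelial markers to at most 9.73 CPM, and cell cycle genes to 197 CPM in O1 and at least 591 CPM elsewhere.

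**Figure D1:**
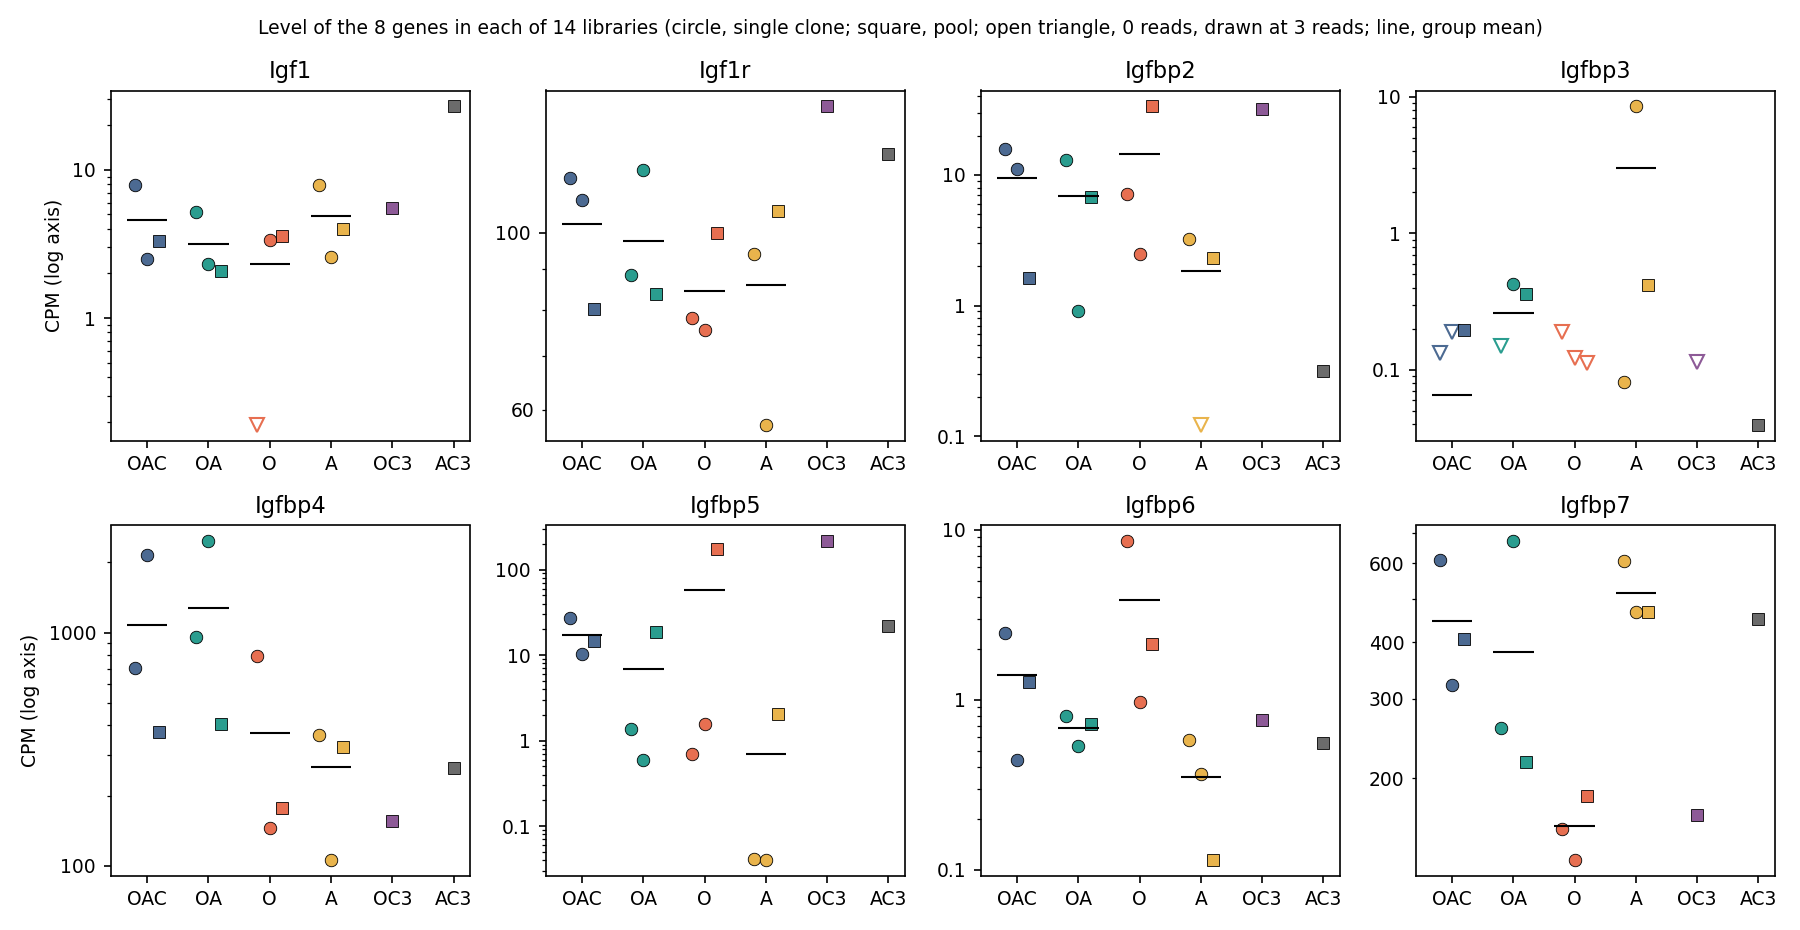
CPM (log axis) of each gene in every library, by group. Igfbp7 shows the O libraries (132 to 183 CPM) under all A libraries (468 to 606 CPM), Igfbp4 a spread of several fold inside each replicated group, and Igfbp5 its highest points in O3 (172 CPM) and OC3 (213 CPM).

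Per kb of exonic length, Igfbp7 and Igfbp4 were the most abundant of the 8 genes and Igf1 and Igfbp3 the least. The mean level over the 14 libraries was 301 CPM per kb for Igfbp7, 284 for Igfbp4, 22.03 for Igf1r, 5.76 for Igfbp5, 5.05 for Igfbp2, 1.30 for Igfbp6, 0.554 for Igf1 and 0.229 for Igfbp3. Igfbp6 reached 1 CPM in 4 libraries and Igfbp3 in 1.

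The ligand gene Igf1 (ENSMUSG00000020053, chromosome 10) was at 7.86, 2.52 and 3.32 CPM in OAC1, OAC2 and OAC3, at 5.16, 2.31 and 2.06 CPM in OA1, OA2 and OA3, at 0, 3.37 and 3.56 CPM in O1, O2 and O3, at 7.94, 2.59 and 4.01 CPM in A1, A2 and A3, at 5.50 CPM in OC3 and at 26.7 CPM in AC3. The adipo-chondrogenic pool AC3 was thus the highest, with a 95% interval of 24.8 to 28.8 CPM that covers counting error only, and O1 had 0 reads, for which a limit of 3 reads corresponds to 0.191 CPM. The other 12 libraries lay between 2.06 and 7.94 CPM and all 4 replicated groups overlapped. The group means ran A (4.85 ± 2.77 CPM), OAC (4.56 ± 2.88 CPM), OA (3.18 ± 1.72 CPM) and O (2.31 ± 2.003 CPM; SD, n = 3 each), and no neighbours in this order were separated. Igf1 has a GC content of 38.0%, and the GC trend of the libraries was rho 0.51 in O1 and 0.65 in OA2, which had 43 Igf1 reads. The part of this trend in the zero was not tested.

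The receptor gene Igf1r (ENSMUSG00000005533, chromosome 7) was the steadiest member. It was at 117, 110 and 80.3 CPM in OAC1, OAC2 and OAC3, at 88.6, 120 and 83.9 CPM in OA1, OA2 and OA3, at 78.1, 75.5 and 99.96 CPM in O1, O2 and O3, at 94.0, 57.4 and 106 CPM in A1, A2 and A3, at 144 CPM in OC3 and at 126 CPM in AC3. Both pools outside the comparisons were above all 12 compared libraries. The 95% counting interval of OC3 (139 to 149 CPM) lay clear of theirs, while that of AC3 (121 to 130 CPM) overlapped those of OA2 and OAC1. The order of the means was OAC (102.4 ± 19.4 CPM), OA (97.5 ± 19.6 CPM), A (86.0 ± 25.5 CPM) and O (84.5 ± 13.5 CPM; SD, n = 3 each), with every neighbouring pair overlapping.

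Igfbp7 (ENSMUSG00000036256, chromosome 5) encodes a secreted protein that binds IGFs more weakly than the other members do. It was at 609, 322 and 407 CPM in OAC1, OAC2 and OAC3, at 259, 670 and 217 CPM in OA1, OA2 and OA3, at 154, 132 and 183 CPM in O1, O2 and O3, at 606, 468 and 468 CPM in A1, A2 and A3, at 166 CPM in OC3 and at 451 CPM in AC3. The 3 O libraries were the lowest of the 12 compared ones, and the pool OC3 lay within their range. The group means ran A (514 ± 79.9 CPM), OAC (446 ± 148 CPM), OA (382 ± 250 CPM) and O (156.5 ± 25.7 CPM; SD, n = 3 each). OA and O were the only neighbours in this order whose ranges did not overlap, and 8.2% of all genes tested did not overlap between OA and O. No neighbours in the orders of the 6 other tested members were separated. The share of all genes with separated neighbours in such an order was not computed.

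The 10 libraries from clones with adipogenic potential (OAC, OA, A and AC3) had 217 to 670 CPM of Igfbp7, with a median of 460 CPM, against 132 to 183 CPM and a median of 160 CPM in the 4 libraries without it (O and OC3). These sets did not overlap, and 1.71% of all genes tested were split in this way by the same libraries. This division follows the labels but was chosen after the values were seen, so no test is given. It was the only division of the tested members by adipogenic, osteogenic or chondrogenic potential without overlap. The share over all genes was not computed for the osteogenic and chondrogenic divisions, so their overlap has no background to be read against.

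Igfbp4 (ENSMUSG00000017493, chromosome 11) encodes a binding protein that inhibits IGF action and is cut by PAPP-A. It was at 705, 2149 and 377 CPM in OAC1, OAC2 and OAC3, at 960, 2460 and 406 CPM in OA1, OA2 and OA3, at 793, 145.5 and 177 CPM in O1, O2 and O3, at 365, 106 and 324 CPM in A1, A2 and A3, at 155 CPM in OC3 and at 264 CPM in AC3. The 5 highest libraries were single clones, namely OA2, OAC2, OA1, O1 and OAC1. Means were 1275 ± 1062 CPM in OA, 1077 ± 943 CPM in OAC, 372 ± 365 CPM in O and 265 ± 139 CPM in A (SD, n = 3 each), and all neighbours in this order overlapped. The same 5 libraries were those with the most positive GC trends (rho 0.65 in OA2, 0.51 in O1, 0.36 in OAC2, 0.35 in OAC1 and 0.09 in OA1), and Igfbp4 has a GC content of 55.1%. With an offset for GC content, the Igfbp4 difference between OA and A was a log2 fold change of 2.09, against 2.27 without it.

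**Figure D2:**
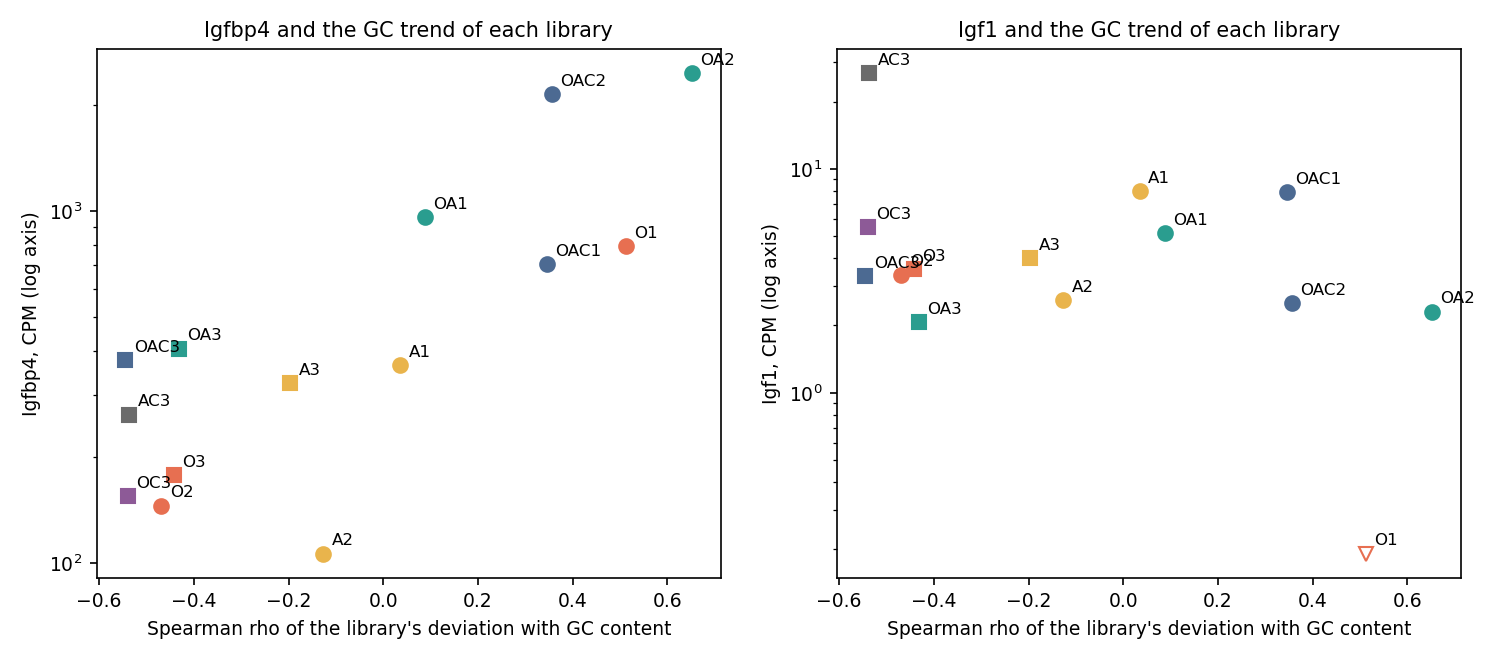
CPM (log axis) of Igfbp4 and Igf1 in each library against the Spearman rho of that library's log2 deviations with GC content over genes. The 5 libraries with the highest Igfbp4 levels (705 to 2460 CPM) are those with the highest rho, and the open triangle marks O1 with 0 Igf1 reads, drawn at 3 reads.

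Igfbp5 (ENSMUSG00000026185, chromosome 1) encodes a binding protein that attaches to bone matrix. It was at 27.1, 10.2 and 14.7 CPM in OAC1, OAC2 and OAC3, at 1.35, 0.590 and 18.6 CPM in OA1, OA2 and OA3, at 0.700, 1.58 and 172 CPM in O1, O2 and O3, at 0.0411, 0.0405 and 2.02 CPM in A1, A2 and A3, at 213 CPM in OC3 and at 21.8 CPM in AC3. The pools O3 and OC3 stood far above the single osteogenic clones O1 and O2. The pool was also the highest library in OA (OA3) and in A (A3), while OAC3 lay between OAC1 and OAC2. A gap between pools and single clones was thus not limited to the osteogenic libraries. The 3 OAC libraries stood above all A libraries, of which A1 and A2 had 1 read each. The means were 58.2 ± 98.8 CPM in O, 17.4 ± 8.73 CPM in OAC, 6.84 ± 10.2 CPM in OA and 0.701 ± 1.14 CPM in A (SD, n = 3 each). The mean of O rests on O3 alone, which was 246 times as high as O1, and all neighbours in this order overlapped.

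Its chromosomal neighbour Igfbp2 (ENSMUSG00000039323) encodes a binding protein that also binds integrins. It was at 15.8, 11.1 and 1.62 CPM in OAC1, OAC2 and OAC3, at 13.1, 0.911 and 6.82 CPM in OA1, OA2 and OA3, at 7.19, 2.48 and 33.5 CPM in O1, O2 and O3, at 3.21, 0 and 2.33 CPM in A1, A2 and A3, at 32.1 CPM in OC3 and at 0.317 CPM in AC3. O3 and OC3 were again the highest, and A2 with 0 reads (a limit of 3 reads is 0.122 CPM) and AC3 with 8 reads the lowest. The means were 14.4 ± 16.7 CPM in O, 9.50 ± 7.21 CPM in OAC, 6.94 ± 6.08 CPM in OA and 1.85 ± 1.66 CPM in A (SD, n = 3 each), with overlap between all neighbours. Across the 14 libraries, log2 CPM of Igfbp2 and Igfbp5 had a Pearson r of 0.591 and a Spearman rho of 0.547, the highest Pearson r of the 21 pairs of members, while the rho of Igfbp2 and Igfbp6 was higher, at 0.556. AC3 went against it, with Igfbp5 at 21.8 CPM beside Igfbp2 at 0.317 CPM.

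**Figure D3:**
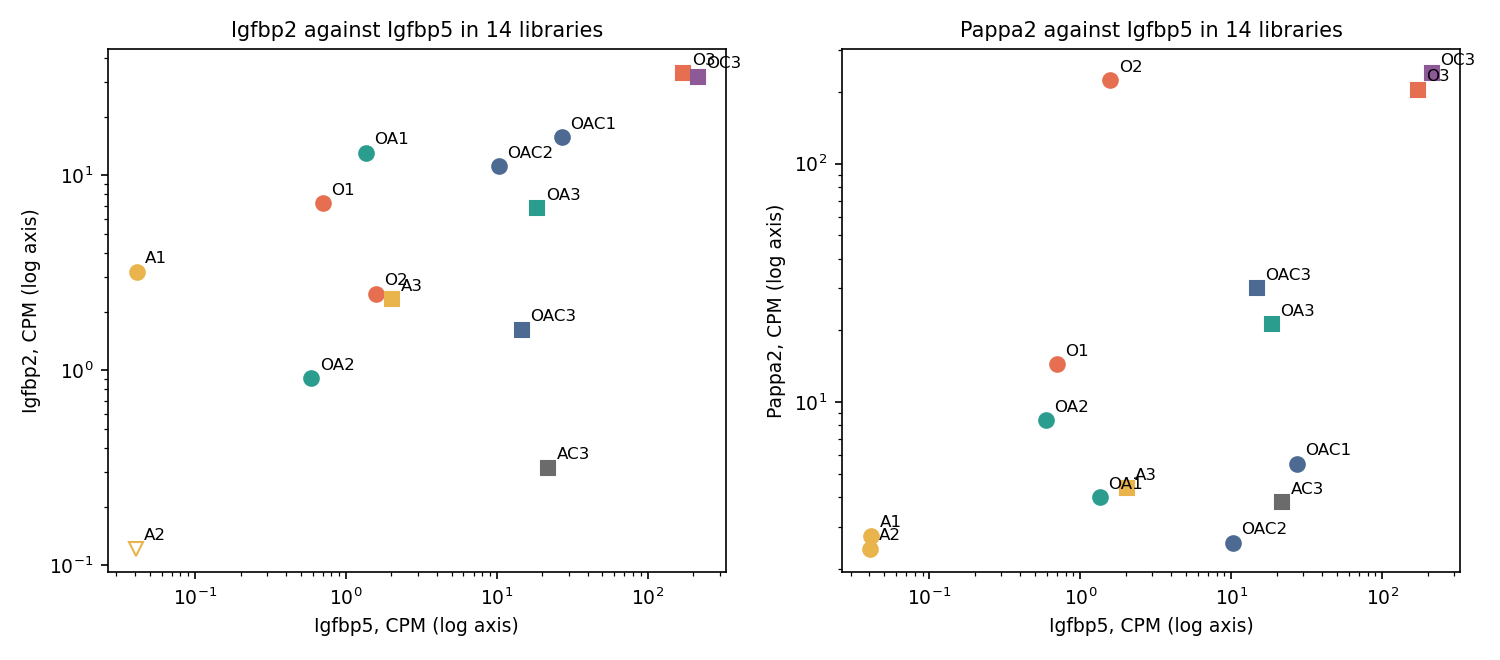
Igfbp2 (left) and Pappa2 (right) against Igfbp5 in each library, CPM on log axes, with single clones as circles and pools as squares. O3 and OC3 lie together at the top right in both panels, with Igfbp5 at 172 and 213 CPM, and the open triangle is A2 with 0 Igfbp2 reads, drawn at 3 reads.

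Igfbp6 (ENSMUSG00000023046, chromosome 15) encodes the binding protein that prefers IGF2 over IGF1. It was at 2.47, 0.440 and 1.26 CPM in OAC1, OAC2 and OAC3, at 0.802, 0.536 and 0.717 CPM in OA1, OA2 and OA3, at 8.53, 0.974 and 2.14 CPM in O1, O2 and O3, at 0.576, 0.365 and 0.114 CPM in A1, A2 and A3, at 0.758 CPM in OC3 and at 0.556 CPM in AC3. The 3 O libraries were above all OA and A libraries, but OC3, the other pool without adipogenic potential, was not. These values rest on 3 reads in A3 to 134 reads in O1. Means were 3.88 ± 4.07 CPM in O, 1.39 ± 1.02 CPM in OAC, 0.685 ± 0.136 CPM in OA and 0.352 ± 0.231 CPM in A (SD, n = 3 each), and all neighbours in this order overlapped. O1, which decides the mean of O, was also the library with the most blood cell markers (49.1 CPM) and the fewest cell cycle reads (197 CPM), and the part of either in the Igfbp6 level was not tested.

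Igfbp3 (ENSMUSG00000020427, chromosome 11), whose product is the main IGF carrier of serum, had 245 reads in all 14 libraries together, of which 210 were in A2 (8.51 CPM). The remaining reads were 5 in OAC3, 8 each in OA2 and OA3, 2 in A1, 11 in A3 and 1 in AC3. It had 0 reads in OAC1, OAC2, OA1, O1, O2, O3 and OC3, where a limit of 3 reads corresponds to at most 0.191 CPM. With 1 library at 1 CPM or more, Igfbp3 did not enter the tests, so 7 of the 8 members were tested.

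Binding protein transcripts came almost all from the same genes. Igfbp4 and Igfbp7 together held 97.5% to 99.9% of the summed CPM per kb of the 6 binding protein genes in 12 libraries, 82.3% in O3 and 79.1% in OC3. In O3, Igfbp5 held 10.4% and Igfbp2 6.61%, and in OC3 they held 13.9% and 6.80%. Igfbp7 was above Igfbp4 per length in 10 libraries and Igfbp4 above Igfbp7 in 4, which were OAC2, OA1, OA2 and O1. The ratio of Igfbp4 to Igfbp7 per length spanned 0.117 in A2 to 3.43 in OAC2, and it was 0.309, 0.117 and 0.355 in A1, A2 and A3. The summed level ran from 172.8 CPM per kb in O2 to 1595 CPM per kb in OA2.

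**Figure D4:**
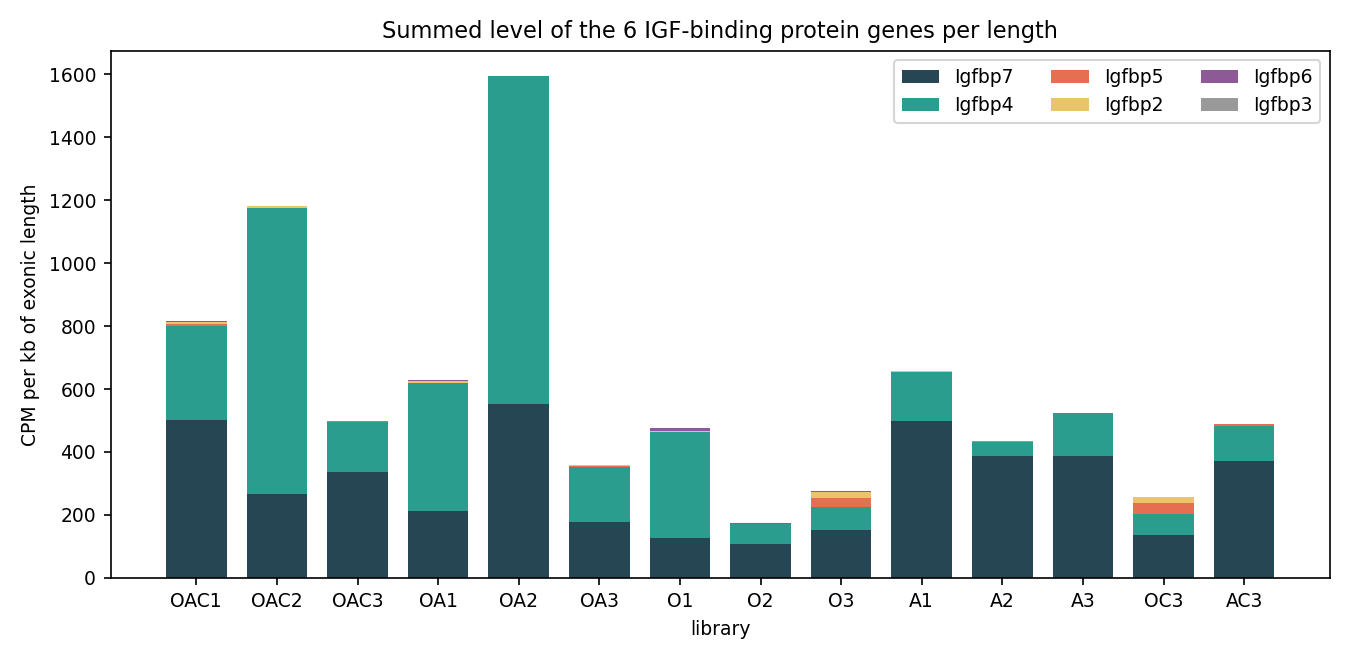
Stacked bars of CPM per kb of exonic length for the 6 binding protein genes in each library. Igfbp7 and Igfbp4 fill all bars but those of O3 and OC3, where Igfbp5 and Igfbp2 are visible, and the sum is lowest in O2 (172.8) and highest in OA2 (1595).

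The comparison of O with A asked which genes separate clones committed to bone from clones committed to fat. Igfbp7 was lower in O than in A, and Igfbp6 higher, without overlap between the groups. Igfbp7 averaged 156.5 ± 25.7 CPM in the O libraries, against 514 ± 79.9 CPM in A (SD, n = 3 each), a log2 fold change of -1.72 ± 0.42 (SE). Igfbp6 averaged 3.88 ± 4.07 CPM in the O libraries, against 0.352 ± 0.231 CPM in A (SD, n = 3 each), a log2 fold change of 3.44 ± 0.95 (SE). By the edgeR quasi-likelihood test, adjusted over 13896 genes, neither passed, with adjusted p-values of 0.223 for Igfbp7 and 0.259 for Igfbp6. DESeq2, which called more genes in every comparison but OAC vs OA, called both, with adjusted p-values of 0.0104 for Igfbp7 and 0.00921 for Igfbp6.

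Both DESeq2 calls depended on single libraries. Without O1 the Igfbp6 difference was a DESeq2 log2 fold change of 2.16 with an adjusted p of 0.267, and the call was also lost without A2 (0.0576) or A3 (0.0636). For Igfbp7 the log2 fold change stayed between -1.77 and -1.53 in the DESeq2 fits without 1 O or A library, but the adjusted p was 0.0507 when O1, 0.0898 when O2, 0.109 when A1 and 0.0559 when A2 was left out. With the GC offset DESeq2 called both, with adjusted p-values of 0.000925 for Igfbp7 and 0.00616 for Igfbp6. Among single clones only it called neither, with adjusted p-values of 0.0913 for Igfbp7 and 0.178 for Igfbp6. Without both OA2 and O1, the libraries set apart by their GC trend, DESeq2 gave adjusted p-values of 1.80e-05 for Igfbp7 and 0.250 for Igfbp6. OA2 is in neither O nor A, but it enters the spread that all groups share, and it was the highest library for Igfbp7 (670 CPM). With only O1 left out the Igfbp7 value was 0.0507, and O vs A was not fitted without OA2 alone. The parts of OA2 and O1 in the lower value were therefore not tested. Summed adipocyte and marrow stroma markers also differed between O and A without overlap, and their part in the Igfbp7 difference was not tested. In bulk libraries fewer expressing cells and less RNA per cell cannot be told apart.

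The other 5 tested members overlapped between O and A. Igfbp5 averaged 58.2 CPM in the O libraries, against 0.701 CPM in A, with a log2 fold change of 6.35 ± 2.37 (SE, adjusted p 0.417 by edgeR), and this was 0.71 without O3 and 10.29 without A3. DESeq2 gave no adjusted p for Igfbp5, because it marked its counts as holding an outlier. It gave one without OA2 and O1 (0.0136), among single clones only (0.0138) and without O3 (0.977, with a log2 fold change of 0.77). DESeq2 runs this outlier check only in groups of 3 or more libraries, so it did not cover the O libraries in these fits. Without OA2 and O1, the O group held O2 (1.58 CPM) and O3 (172 CPM). A1 and A2 had 1 Igfbp5 read each. The log2 fold changes of the others were 2.96 ± 1.51 for Igfbp2 (SE, adjusted p 0.579 by edgeR), -1.06 ± 1.08 for Igf1 (0.907), 0.49 ± 0.89 for Igfbp4 (0.998) and -0.02 ± 0.27 for Igf1r (1.00). Igfbp4 had the opposite sign without O1, at -0.71, and the sign of Igf1r turned with the scaling, the tool and the library left out. Igfbp3 had 0 reads in each of the 3 O libraries, against 2, 210 and 11 reads in A1, A2 and A3.

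**Figure D5:**
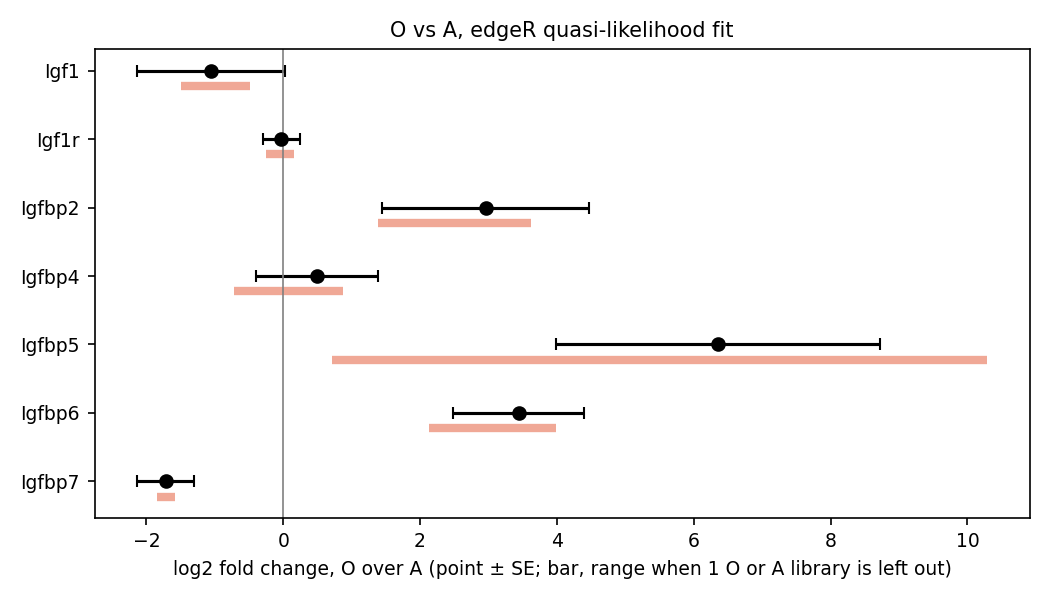
Log2 fold change of O over A for the 7 tested members from the edgeR fit, with SE as the black error bar and the range over fits without 1 O or A library as the coloured bar. Igfbp7 stays between -1.84 and -1.58 whichever of these libraries is left out, while Igfbp5 spans 0.71 to 10.29.

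Counted over the 7 tested members, 0 passed edgeR's adjusted threshold in O vs A, against 0.0072% of all genes tested. At an unadjusted p under 0.05, edgeR had 3 members, Igfbp5 and Igfbp6 higher and Igfbp7 lower, against 9.89% of all genes. DESeq2 called 2 of the 6 members it gave an adjusted p, against 3.03% of all genes. Groups did not overlap for 2 of 7 members, against 15.6% of all genes. The members' median log2 fold change was 0.49, beside 0.03 over all genes tested.

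OA libraries were set against O, which lacks adipogenic potential. This comparison and those below use the same O, A, OA or OAC libraries again, so their values are not independent of each other. Igfbp7 was higher in OA (259, 670 and 217 CPM) than in O (154, 132 and 183 CPM) without overlap, with a log2 fold change of 1.29 ± 0.41 (SE, adjusted p 0.851 by edgeR and 0.241 by DESeq2). Igfbp6 was lower in OA (0.802, 0.536 and 0.717 CPM) than in O (8.53, 0.974 and 2.14 CPM), with a log2 fold change of -2.48 ± 0.91 (SE, adjusted p 0.852 by edgeR and 0.268 by DESeq2). Without OA2 and O1 these differences were 0.61 and -1.01 by edgeR, and without OA3 DESeq2 called Igfbp7, with a log2 fold change of 1.56 and an adjusted p of 0.0299. No member passed edgeR's adjusted test, against 0% of all genes, 2 had an unadjusted p under 0.05, against 5.43%, DESeq2 called 0 with all libraries, against 0.303%, and 2 of 7 did not overlap, against 8.2%.

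OA libraries were also set against A, which lacks osteogenic potential. Igfbp4 was higher in OA (960, 2460 and 406 CPM) than in A (365, 106 and 324 CPM) without overlap. Its log2 fold change was 2.27 ± 0.93 (SE), and neither tool called it (adjusted p 0.903 by edgeR and 0.262 by DESeq2). The difference was 1.36 without OA2. Of the 7 members edgeR called 0, against 0.0072% of all genes, and had 1 at an unadjusted p under 0.05, against 5.27%. DESeq2 called 0, against 0.937%, and groups did not overlap for 1 member, against 11%. DESeq2 called Igfbp7 lower in OA than in A without OA2 and O1, with a log2 fold change of -1.11 and an adjusted p of 0.0369, and without OA2 alone (adjusted p 0.0493). OA2 was the highest OA library for Igfbp7, at 670 CPM, so leaving it out widens this difference.

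With all libraries, no tested member separated the tripotent libraries from OA. All 7 overlapped between OAC and OA, against 4.93% of all genes without overlap. By edgeR 0 members passed the adjusted threshold, against 0% of all genes, and 0 an unadjusted p under 0.05, against 1.17%, while DESeq2 called 0 of the 6 members it gave an adjusted p and 0% of all genes. Among single clones only, DESeq2 gave Igfbp5 an adjusted p and called it higher in OAC (27.1 and 10.2 CPM) than in OA (1.35 and 0.590 CPM), with a log2 fold change of 4.27 and an adjusted p of 0.00147. That fit ran without the outlier check, and OA2 had 11 Igfbp5 reads. These p-values do not show that the groups are alike, since the SE of the log2 fold changes reached 1.89 for Igfbp5.

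Between OAC and O, Igfbp7 was the member without overlap, at 609, 322 and 407 CPM in OAC and 154, 132 and 183 CPM in O. Its log2 fold change was 1.51 ± 0.42 (SE, adjusted p 0.730 by edgeR and 0.0661 by DESeq2), and it was called by DESeq2 without OA2 and O1 (adjusted p 0.000913) and with the GC offset (0.0134). OA2, which is in neither group but enters the shared spread, was the highest library for Igfbp7. DESeq2 without OA2 and O1 also called Igfbp4, higher in OAC than in O, with a log2 fold change of 2.79 and an adjusted p of 0.0138. O1 was the highest O library for Igfbp4, at 793 CPM, so leaving it out widens this difference. Igfbp5 had an edgeR log2 fold change of -1.75 with all libraries. Among single clones only, which leaves out O3, DESeq2 called Igfbp5 higher in OAC than in O, at 3.98 with an adjusted p of 0.00080. That fit ran without the outlier check. With all libraries, edgeR called 0 of 7 members, against 0% of all genes, and had 1 at an unadjusted p under 0.05, against 6.02%. DESeq2 called 0, against 0.728%, and 1 member did not overlap, against 11.5%.

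Between OAC and A, Igfbp4 and Igfbp5 were higher in OAC without overlap. Igfbp4 was at 705, 2149 and 377 CPM in OAC and 365, 106 and 324 CPM in A, a log2 fold change of 2.02 ± 0.92 (SE, adjusted p 1.00 by edgeR and 0.612 by DESeq2). Igfbp5 was at 27.1, 10.2 and 14.7 CPM in OAC and 0.0411, 0.0405 and 2.02 CPM in A, a log2 fold change of 4.61 ± 2.20 (SE, adjusted p 1.00 by edgeR). DESeq2 gave Igfbp5 no adjusted p with all libraries, and without OA2 and O1 the adjusted p was 0.259. Among single clones only, DESeq2 called Igfbp5 with a log2 fold change of 8.88 and an adjusted p of 6.65e-08. That fit ran without the outlier check, and A1 and A2 had 1 Igfbp5 read each, so its p is weak evidence. By edgeR 0 members passed, against 0.0072% of all genes, and 0 had an unadjusted p under 0.05, against 3.58%. DESeq2 called 0 of 6, against 0.411%, and 2 of 7 members did not overlap, against 10.8%.

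Taking OAC and OA together against O and A compared multipotent with unipotent clones. Igfbp4 had the lowest p of the members, with 377 to 2460 CPM in the 6 multipotent libraries and 106 to 793 CPM in the 6 unipotent ones, which overlapped. Its log2 fold change was 1.90 ± 0.65 (SE), with an unadjusted p of 0.0146 and an adjusted p of 0.998 by edgeR, and an adjusted p of 0.196 by DESeq2. DESeq2 called it without OA2 and O1, at 2.08 with an adjusted p of 0.0216, and without O1 alone, at 2.55 with an adjusted p of 0.00944. O1 was the highest unipotent library for Igfbp4, at 793 CPM. Leaving it out therefore widens this difference, and these calls do not add support. Among single clones only, DESeq2 called Igfbp5 higher in the multipotent libraries, at 4.29 with an adjusted p of 0.000107. That fit ran without the outlier check, and A1 and A2 had 1 Igfbp5 read each. With all libraries the edgeR log2 fold change of Igfbp5 was 0.76, with an unadjusted p of 0.584. edgeR called 0 of 7 members, against 0% of all genes, and Igfbp4 was the 1 member at an unadjusted p under 0.05, against 4.86%. DESeq2 called 0, against 0.223%, and 0 members were free of overlap, against 0.288%.

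A test of any difference among OAC, OA, O and A gave the lowest edgeR p-values to Igfbp7 and Igfbp6. These 2 had an unadjusted p under 0.05, against 5.97% of all genes, and 0 passed the adjusted threshold, against 0%, with adjusted p-values of 0.692 and 0.706. DESeq2 called 1 member, Igfbp6, with an adjusted p of 0.0478, against 2.1% of all genes. That call was lost in 8 of the 12 fits without 1 library. It was also lost without OA2 and O1 (adjusted p 0.582) and among single clones only (0.504), and it held with the GC offset (0.0289). DESeq2 called Igfbp7 here with the GC offset (adjusted p 0.00832), without OA2 (1.95e-06), without OA3 (0.0142) and without OA2 and O1 (6.93e-05), Igfbp4 without OA2 and O1 (0.0196), and Igfbp5 among single clones only (3.37e-12). OA2 was the highest library for Igfbp7, and O1 the highest O library for Igfbp4. The Igfbp5 call came from a fit without the outlier check, with 1 Igfbp5 read each in A1 and A2.

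Of 57 other genes of the IGF pathway that were listed, 54 were in the table and 50 were tested. edgeR called 0 of them in O vs A, against 0.0072% of all genes, and DESeq2 called 2 of the 50, against 3.03%. By edgeR 13 of the 50 had an unadjusted p under 0.05, against 9.89% of all genes, and 10 of these were lower in O, against 4.97%. Groups did not overlap for 16 of the 50, against 15.6% of all genes, and 14 of these were lower in O, against 8.28%. Their median log2 fold change was -0.30, beside 0.03 over all genes tested.

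Pappa2, which encodes the protease PAPP-A2 known to cut IGFBP-3 and IGFBP-5, was the pathway gene with the clearest difference between O and A. It was at 5.52, 2.58 and 30.1 CPM in OAC1, OAC2 and OAC3, at 4.01, 8.42 and 21.3 CPM in OA1, OA2 and OA3, at 14.4, 224 and 204.5 CPM in O1, O2 and O3, at 2.76, 2.43 and 4.35 CPM in A1, A2 and A3, at 240 CPM in OC3 and at 3.81 CPM in AC3. O2, O3 and OC3 exceeded every other library, and all O libraries exceeded all A libraries. The log2 fold change of O over A was 5.54 ± 1.25 (SE, adjusted p 0.193 by edgeR), and DESeq2 called it with 5.57 and an adjusted p of 5.61e-06, a call that held in each fit without 1 O or A library. DESeq2 also called Pappa2 lower in OA than in O, at -3.72 with an adjusted p of 0.0449, and lower in OAC than in O, at -3.51 with an adjusted p of 0.0397. Each of these calls was lost in 4 of the 6 fits without 1 library. By edgeR the adjusted p was 0.851 for OA vs O and 0.763 for OAC vs O. The groups overlapped in both, with OA3 (21.3 CPM) and OAC3 (30.1 CPM) above O1 (14.4 CPM). O2 had 224 CPM of Pappa2 beside 1.58 CPM of Igfbp5, so the levels of the protease and of this substrate were not high in all of the same libraries.

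Irs2, an insulin receptor substrate, was the other pathway gene that DESeq2 called in O vs A. It was at 16.8 (O1), 12.5 (O2) and 15.5 (O3) CPM, against 31.4, 23.4 and 34.5 CPM in A1, A2 and A3, without overlap. Its DESeq2 log2 fold change was -0.94 with an adjusted p of 0.0414, the edgeR value was -0.99 ± 0.28 (SE, adjusted p 0.259), and the DESeq2 call was lost in 5 of the 6 fits without 1 library. Irs1, its relative, spanned 80.2 to 486.5 CPM in the O libraries, against 147 to 207 CPM in the A libraries, which overlapped.

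Igf2, the gene of the other IGF ligand, was lowest in O2 and O1 and highest in A1. It was at 491, 784 and 134 CPM in OAC1, OAC2 and OAC3, at 1100 (OA1), 294 (OA2) and 171 (OA3) CPM in the OA group, at 49.3, 31.9 and 311.5 CPM in O1, O2 and O3, at 2091, 1033 and 225 CPM in A1, A2 and A3, at 133 CPM in OC3 and at 165 CPM in AC3. Reads of its antisense partner cannot be told apart from it here, since the strand setting of the counting is not given in the sources used here. Igf2r, the clearance receptor for IGF2, stayed between 294 and 681 CPM in all libraries, and Insr, the insulin receptor, between 24.1 and 64.0 CPM. Ghr, the growth hormone receptor, was at 207.9 CPM in AC3 and at 14.2 to 50.7 CPM in all other libraries, so that AC3 was highest for both Igf1 and Ghr.

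Pappa, the protease that cuts IGFBP-4, was at 93.0, 50.3 and 96.5 CPM in OAC1, OAC2 and OAC3, at 12.3, 13.6 and 69.6 CPM in OA1, OA2 and OA3, at 6.18, 21.4 and 63.9 CPM in O1, O2 and O3, at 36.9, 18.9 and 17.7 CPM in A1, A2 and A3, at 57.6 CPM in OC3 and at 30.0 CPM in AC3. Its group means were 79.9 ± 25.7 CPM in OAC, 31.9 ± 32.7 CPM in OA, 30.5 ± 29.9 CPM in O and 24.5 ± 10.8 CPM in A (SD, n = 3 each). Stc2, which encodes the PAPP-A inhibitor stanniocalcin-2, averaged 4.72 ± 5.19 CPM in OAC, 15.6 ± 11.4 CPM in OA, 13.5 ± 7.93 CPM in O and 1.55 ± 2.23 CPM in A (SD, n = 3 each). The lowest Stc2 level was 0.123 CPM in A1 and the highest 24.4 CPM in OA1.

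For each tested member the genes with the most similar log2 CPM over the 14 libraries were searched among 9703 genes that averaged at least 5 CPM. Igfbp7 was most like Cd97, an adhesion receptor, and Nr1h3, the liver X receptor alpha, with Pearson r of 0.945 and 0.925. Igfbp4 was most like Slc27a4, a fatty acid transporter, and Map3k10, a kinase, with r of 0.942 and 0.936. Igfbp6 was most like Ndrg1 (0.928) and Khnyn (0.844), and Igfbp5 most like Col11a1, a fibrillar collagen of cartilage, and Eif2ak3, a kinase of the unfolded protein response, with r of 0.856 and 0.839. Igfbp2 was most like Fbn2, a fibrillin of elastic microfibrils, and Rnf43, with r of 0.856 and 0.854. Igf1 was most like Klhl23 (0.924) and Adam12, a protease known to cut IGFBP-3 and IGFBP-5, at 0.907. O1 was the lowest library for both Igf1 (0 reads) and Adam12 (0.191 CPM). By Spearman's rho some of these matches were weaker, at 0.635 for Adam12, 0.653 for Khnyn and 0.662 for Rnf43. Igf1r had the weakest partners, Nynrin and Magi1, with r of 0.809 and 0.807. Every gene is measured in the same 14 libraries, whose GC trends differ, so these values are descriptions and carry no p.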

How the data were processed

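The authors deposited whole-number counts of reads for each gene and library, made with CASAVA 1.8.0, bedtools 2.11 and build mm9, per the submitters' processing notes. Which aligner was used, and whether counting used strand, is not given in the sources used here. Exonic lengths are the authors' deposited values. The members and lists were chosen with earlier results of these data known. The 13896 genes that reached 1 CPM in 3 or more of the 14 libraries were tested by edgeR 4.0.16 under R 4.3.3 with its quasi-likelihood F test (TMM, robust, 6 group means, 8 residual degrees of freedom), with p-values adjusted by Benjamini-Hochberg within each of 7 comparisons and a test of any difference (threshold 0.05). DESeq2 1.42.0 was the second tool, and an adjusted p it did not give was left out. Its fits with a replicate block, with a GC offset or with libraries left out were added after the data were seen. GC content came from a later build for 96.5% of tested genes. Log2 CPM used a prior count of 2. Fits were also run on simulated counts that held no GC trend and no difference between pools and single clones. That run therefore cannot show how the fits behave with these features of the libraries. Other alternatives were RLE size factors, other filters on low counts, a GC offset, a replicate block, the compared groups only, and fits without 1 library, without OA2 and O1 or without pools. Named genes were the members, pathway genes called by either tool, 8 pathway genes (Igf2, Igf2r, Insr, Pappa, Stc2, Irs1, Irs2 and Ghr) and, per member, the 2 most similar genes. Intervals are exact Poisson at 95%, and a count of 0 is given a limit of 3 reads.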

Additional observations from a re-analysis of the deposited data

Results flagged for a closer look

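Igf1 had 0 CPM in O1. Among the 6 O and A libraries its gap to the next library was 0.757 of the range in log2 CPM, above the critical value of 0.625 for 6 libraries. Of 14 such groups of 6 libraries examined, 1 stood out, and chance gives about 1 in 20.

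Both pools outside the comparisons exceeded all 12 compared libraries in some members. Igf1 was at 26.7 CPM in AC3. Igf1r was at 143.9 CPM in OC3 and 125.5 CPM in AC3. Igfbp5 was at 213.4 CPM in OC3. These pools have 1 library each and entered no comparison, so their differences were not tested.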

How the results depend on the processing

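The number of members called by edgeR was 0 in every comparison under every edgeR setting. DESeq2 with all libraries called 2 in O vs A and 1 in the test of any difference. Calls it made without some libraries or with the GC offset are given with the comparisons. Over all genes, edgeR called 1 gene in O vs A, and DESeq2 420, no filter 2, the GC offset 4, omitting OA2 and O1 3, single clones only 0, the compared groups only 0, and fits without 1 library 0 to 4. In OA vs A edgeR called 1 gene, and DESeq2 130, no filter 2, omitting OA2 and O1 2, single clones only 0, the compared groups only 0, and fits without 1 library 0 to 1. In OAC vs A edgeR called 1 gene, and DESeq2 57, no filter 2, omitting OA2 and O1 2, single clones only 0, the compared groups only 2, and each fit without 1 library 0. Where edgeR called 0 genes, DESeq2 called 42 in OA vs O, 101 in OAC vs O, 31 in multipotent vs unipotent and 291 in the test of any difference, the GC offset gave 1 in each of the last 2, and no filter and the fit without O1 1 in the last (fits without 1 library 0 to 1). Igf1r in O vs A (-0.02) had the other sign with DESeq2 (0.0254), RLE size factors (0.0253), the GC offset (0.0095), GC offset with block (0.016), without OA2 and O1 (0.012), single clones only (0.098) and in fits without 1 library (-0.25 to 0.16). Igfbp4 in O vs A (0.49) was -0.73 without OA2 and O1, and -0.71 to 0.87 in fits without 1 library. The causes were not tested.

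The labels do not say whether a library number marks the same mouse in every group. Of 18 same-number pairs 11 correlated above 0.1 (-0.585 to 0.759), all 6 pairs of pools among them (0.295 to 0.759), and 7 of 12 libraries correlated best with their own number. The main fits assumed no pairing, so whatever the pools or libraries of the same number share stayed in their spread. With the replicate block, edgeR called 1 gene in O vs A, with log2 fold changes of 3.08 for Igfbp6 and -1.69 for Igfbp7, and DESeq2 called 554 genes, with Igfbp6, Igfbp7 and Igfbp5 (5.73, adjusted p 0.000232) among them. DESeq2 with the block also called Igfbp5 in OAC vs A (7.84, 1.20e-07), in multipotent vs unipotent (3.03, 0.0404) and in the test of any difference (0.000116). With the block, each combination of group and number held 1 library, so DESeq2's outlier check did not run. The Igfbp5 counts it had marked with all libraries therefore stayed in these fits. Depth limits Igfbp3 and Igfbp6, with 245 and 412 reads in all.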
